A study of Mus musculus with 45 samples.

Results

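The replication-dependent histone genes are described here through their chromatin accessibility in mouse erythroblasts that kept Stag2 (WT) or had it deleted (KO). They were taken by name: every gene of the deposited table whose symbol begins with Hist1h, Hist2h, Hist3h or Hist4h, which gave 65 of 24333 genes. Of these, 52 belong to Hist1, 9 to Hist2, 3 to Hist3 and 1 to Hist4. Going by symbol, 6 are genes of linker histone H1, 18 of H2A, 17 of H2B, 11 of H3 and 13 of H4. The H2B count includes Hist3h2bb-ps, which is named as a pseudogene.

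These genes supply the histones that package newly copied DNA. H2A, H2B, H3 and H4 form the core around which DNA is wound, and H1 binds the linker DNA where it enters and leaves that core. The genes lack introns, lie in clusters, and are transcribed mainly in S phase at a nuclear structure called the histone locus body, where the protein NPAT acts. Their transcripts end in a stem-loop bound by SLBP in place of a poly(A) tail. Erythroblasts stop dividing and condense their chromatin as they mature, before the nucleus is expelled.

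Of the 45 samples of the series, 6 were used: ATAC libraries of 10x multiome preparations from nuclei of sorted Ter119+ erythroblasts, 3 from WT and 3 from KO mice. Ter119 marks red cell precursors, and STAG2 is part of cohesin, which holds chromatin in loops. Nuclei of both genotypes were collected when 6 to 8 weeks had passed since the final treatment with pIpC, a double-stranded RNA analogue used to switch on inducible gene deletion. The labels name neither the Cre driver nor the animals' age, and do not say whether each library came from a separate animal, so p-values measure the spread between these libraries. The other 39 samples were not analysed here.

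The libraries held 4617 to 6990 nuclei and 46782673 to 66286151 fragments. A gene score is a summary of the ATAC fragments in and around a gene, and library means are given per 1000000 of the summed score. It measures accessibility, not transcription, and a lower mean cannot tell fewer nuclei with an open site from less signal per nucleus. Of 14 erythroid markers 13 were in the table, all with a mean score of at least 5, and their summed score was 2702.5 to 2951.9 in WT and 2366.9 to 2568.8 in KO. The summed score of 5 T-cell markers was 23.2 to 27.6 in WT and 28.5 to 34.2 in KO, that of 5 B-cell markers 69.6 to 77.3 and 82.0 to 86.8, that of 6 myeloid markers 50.7 to 56.6 and 61.4 to 67.4, and that of 5 megakaryocyte markers 181.5 to 209.7 and 218.5 to 234.2. None of these markers was at 0. In the median nucleus, the percentage of ends that lay in peaks was 62.13 to 64.68% in WT and 57.4 to 59.83% in KO. The part of the marker scores in the differences below was not tested, and counts between nuclei matched in depth and share of ends in peaks are given below. The score of Stag2 itself was 64.2, 65.7 and 65.9 in WT and 61.0, 65.1 and 62.4 in KO (-0.05 ± 0.047, adjusted p = 0.348, limma). Accessibility around the gene does not check its deletion. In all, 725 barcodes occurred in more than 1 library, on 4.34% of the nuclei.

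The Hist1 genes lay on chromosome 13 (mm10) in groups parted by more than 100 kb. The first group ran from 21715713 to 21833475 with 16 genes, the second from 22035122 to 22043658 with 5, and the third from 23531044 to 23764412 with 28. Hist1h2ba and Hist1h2aa, known as histone genes of the testis, formed a pair at 23933725 to 23934913. Hist1h2al stood alone at 51200084 to 51203066. The Hist2 genes lay on chromosome 3 from 96219916 to 96270192, the Hist3 genes on chromosome 11 from 58948911 to 58955192, and Hist4h4 on chromosome 6 from 136803993 to 136804431. All 65 matched a RefSeq gene by symbol or synonym and position, and 57 had a promoter sequence in the RefSeq table (GRCm38.p6). Hist1h3f, Hist1h2bc, Hist1h3a, Hist1h2al, Hist2h2be, Hist2h3c1, Hist2h4 and Hist3h2bb-ps had none.

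The promoters below are shown because they belong to genes with some of the larger and some of the smaller changes between the maturation classes. Hist1h4k and Hist1h4j had some of the largest falls, as did Hist1h2bn, which shares its promoter with Hist1h2ak. Hist1h2ak itself fell less, by 0.86 in WT and 1.0 in KO. Its scores were low, with means of 19.9 in Int and 10.5 in Late nuclei of WT, against 234 and 66.4 for Hist1h2bn. Hist1h2ac (with its partner Hist1h2bc), Hist1h1c and Hist4h4 had differences nearer 0. Each sequence is written 5′ to 3′ on the gene's strand and ends at the base before the start site, cut where another gene begins. Capitals mark, on either strand, the 4 motifs spelled out after the sequences, of which Hist1h4j and Hist4h4 hold none within these bases. The Hist1h4j sequence ends where that of Hist1h4k reads TATAAA, so a TATAAA running past the Hist1h4j start would not be seen.
Hist1h4k, chr13:21750554-21750803, minus strand: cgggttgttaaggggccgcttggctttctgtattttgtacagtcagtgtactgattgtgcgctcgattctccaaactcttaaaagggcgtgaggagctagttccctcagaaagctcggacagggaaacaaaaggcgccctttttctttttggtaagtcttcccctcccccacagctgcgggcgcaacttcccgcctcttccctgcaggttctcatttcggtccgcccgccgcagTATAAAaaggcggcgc
Hist1h4j, chr13:21734784-21735033, plus strand: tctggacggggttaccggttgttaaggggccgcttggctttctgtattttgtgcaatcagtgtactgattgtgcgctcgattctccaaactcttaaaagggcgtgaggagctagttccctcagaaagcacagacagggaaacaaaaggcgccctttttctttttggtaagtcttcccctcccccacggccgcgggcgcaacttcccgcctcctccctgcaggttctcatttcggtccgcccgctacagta
Hist1h2ak, chr13:21753913-21754075, minus strand: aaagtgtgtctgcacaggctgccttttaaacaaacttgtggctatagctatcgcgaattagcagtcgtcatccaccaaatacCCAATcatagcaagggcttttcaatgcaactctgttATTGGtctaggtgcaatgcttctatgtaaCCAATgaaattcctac
Hist1h2ac, chr13:23683960-23684198, minus strand: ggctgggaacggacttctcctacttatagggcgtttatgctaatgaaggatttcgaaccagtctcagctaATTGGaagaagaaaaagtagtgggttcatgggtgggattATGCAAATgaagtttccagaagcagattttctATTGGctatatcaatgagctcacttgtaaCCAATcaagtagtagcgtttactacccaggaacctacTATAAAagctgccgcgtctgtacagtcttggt
Hist1h1c, chr13:23738557-23738806, plus strand: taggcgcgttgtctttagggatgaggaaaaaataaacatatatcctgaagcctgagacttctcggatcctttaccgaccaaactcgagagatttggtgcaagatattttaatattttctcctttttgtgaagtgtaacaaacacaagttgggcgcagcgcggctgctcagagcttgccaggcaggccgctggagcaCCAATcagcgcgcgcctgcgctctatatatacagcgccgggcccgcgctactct
Hist4h4, chr6:136804432-136804681, minus strand: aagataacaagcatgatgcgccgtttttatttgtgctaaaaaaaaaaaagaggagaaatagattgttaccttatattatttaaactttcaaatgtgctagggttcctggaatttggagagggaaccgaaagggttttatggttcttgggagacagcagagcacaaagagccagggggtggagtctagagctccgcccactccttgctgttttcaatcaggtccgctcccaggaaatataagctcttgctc

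The Hist1h4j and Hist1h4k promoters shared an identical run of 72 bases. Across the 250 bases before the start, TATAAA, the TATA box, was found on either strand in 28 of 57 histone promoters (49.1%) and in 13% of all 27025. CCAAT, the box bound by NF-Y, was found in 47 of 57 (82.5%) against 34.5% of all. It was present in 6 of 6 H1, 17 of 17 H2A, 14 of 14 H2B and 7 of 8 H3 promoters, but in 3 of 12 H4 promoters. ATTTGCAT, the octamer bound by OCT1, was found in 13 of 57 (22.8%) against 1.61% of all: in 7 of 17 H2A and 6 of 14 H2B promoters, and in 0 of 6 H1, 0 of 8 H3 and 0 of 12 H4 promoters. TTTCGCGC, a form of the E2F site, was found in 7 of 57 against 0.255%. None of the 4 motifs contains another. Going by the starts in the deposited table, an H2A and an H2B gene faced away from each other in 11 pairs. Between their starts lay 173 to 306 bases, so both genes of a pair can hold the same copy of a motif. The promoter sequences use RefSeq starts, which differ from these by 47 bases for Hist1h2bn. A match is a match of letters only.

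The deposited scores were 0 in every nucleus for 16 of the 65 genes. These were all 9 Hist2 genes (Hist2h2ab, Hist2h2ac, Hist2h2be, Hist2h3c2, Hist2h2aa2, Hist2h3c1, Hist2h4, Hist2h3b and Hist2h2bb) and 7 neighbouring Hist1 genes (Hist1h1b, Hist1h3i, Hist1h2an, Hist1h2bp, Hist1h2ao, Hist1h4m and Hist1h4n). The Hist1 run spanned 52.3 kb, from 21779832 to 21832158, and the Hist2 run 50.3 kb. Every gene of the table inside these runs was listed at 0. Over all genes, 301 were listed at 0, among them Actg1, Eef2 and Atf4, which cells use generally. The 0 is therefore given as listed and not read as closed chromatin. Next to the Hist2 run, Bola1 scored 0.26 in WT and 0.39 in KO and Fcgr1 2.91 and 4.62.

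Of the other 49 genes, 46 had a mean of at least 5 and were tested over all nuclei. The 3 left out were Hist1h1e, a linker histone gene (2.95 to 3.64 in WT, 3.74 to 4.28 in KO), Hist1h2ba (3.19 to 4.14 and 4.01 to 4.13) and Hist1h2aa (2.23 to 2.66 and 2.80 to 3.58). The scores of neighbouring genes share fragments, so counts of genes are given with counts of loci where they matter. Some table entries span more than the short histone unit, as Hist1h2be does from 23583670 to 23621124. The family also holds near-identical copies, and how reads that match several copies were counted was not given in the sources used here.

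Maturation was addressed by comparing, within each library, the nuclei the authors classed as Late with those they classed as Int. Hist1 accessibility was lower in Late nuclei in all 6 libraries. The summed Hist1 score was 16645, 17574 and 18216 in Int and 11527, 10823 and 11218 in Late nuclei of the 3 WT libraries. In KO it was 16007, 17781 and 17517 in Int and 11654, 11991 and 11755 in Late. Late nuclei thus held 0.641 ± 0.0443 of the Int level in WT (SD, n = 3) and 0.691 ± 0.032 in KO (SD, n = 3). The ratio was 0.881 ± 0.0141 and 0.85 ± 0.0335 for Hist3, and 1.02 ± 0.0084 and 0.969 ± 0.0671 for Hist4h4.

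Gene by gene, 42 of 46 fell in WT and 0 rose, where 76% of the 17747 genes tested were called, 48.6% lower and 27.4% higher. In KO 39 of 46 fell and 0 rose, where 73.4% of all genes were called, 47.5% lower and 25.9% higher. The median difference over the histone genes was -0.59 on the log2 scale in WT and -0.47 in KO, and over all genes tested it was -0.15 in both. Among genes with a mean score of at least 100, 39 of 42 histone genes fell in WT, where 19.1% of 3023 such genes fell and 63.7% rose. In KO 36 of 42 fell, where 19.8% fell and 62.6% rose. The 42 lay in 18 of 21 loci and the 39 in 16, a locus being genes whose start sites lie within 5 kb of the next. The 39 that fell in KO also fell in WT, and Hist1h1c, Hist1h2ac and Hist1h2bc passed the test in WT and not in KO. In the depth-matched classes described next all 3 also fell in KO, and the difference between the genotypes is tested below. The classes were assigned by the authors on the same nuclei, so the test shows how evenly the classes differ over libraries.

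Median depth was 10121 to 14998 fragments per Int nucleus and 5693 to 6812 per Late nucleus. Between Int and Late nuclei drawn to match in fragment number and share of ends in peaks, 43 of 45 fell in WT and 44 of 45 in KO, where 22.7% and 21.3% of all genes fell. The medians were then -0.74 and -0.58, against 0.03 and 0.02 over all genes. When libraries were instead centred on the median gene, which moved the median of all genes from -0.15 to 0.06 in WT and to 0.04 in KO, 33 fell and 3 rose in WT, where 34.4% of all genes fell and 42.6% rose. In KO 29 fell and 5 rose, where 32.1% fell and 39.9% rose.

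**Figure D1:**
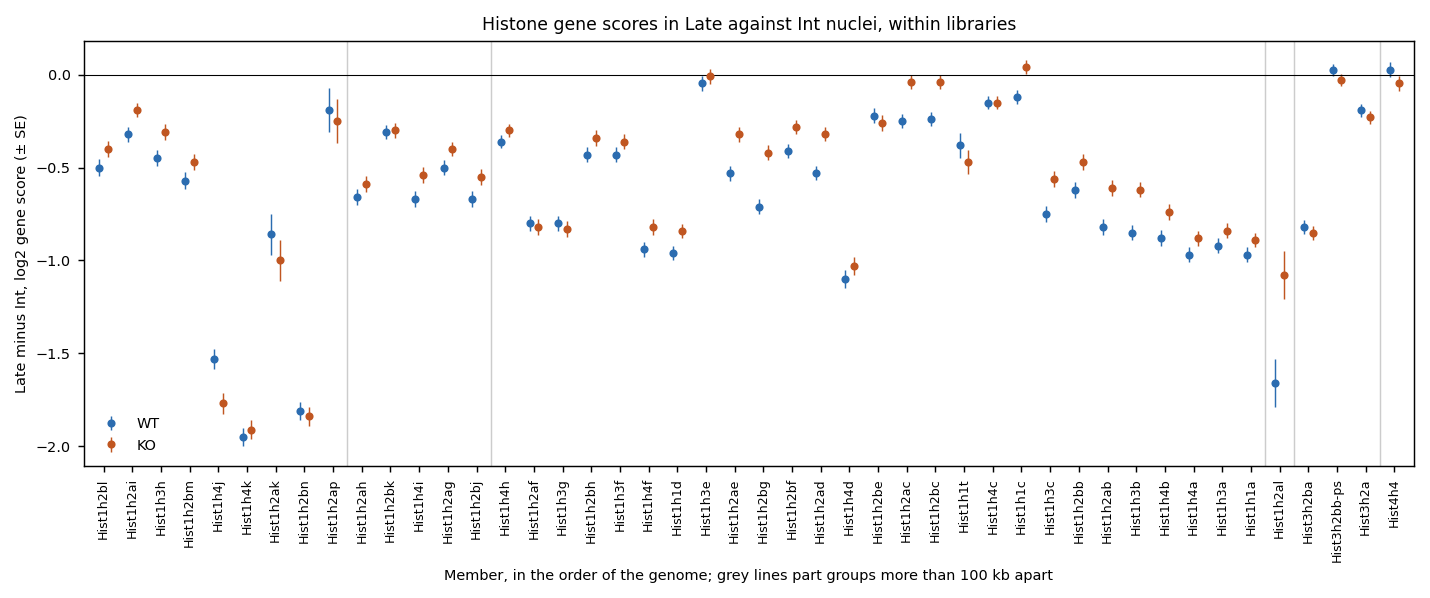
Late minus Int difference in log2 gene score for each tested histone gene (points, with SE), WT and KO libraries separately, in genome order. Most points lie below 0, down to -1.95 for Hist1h4k, while Hist1h3e, Hist3h2bb-ps and Hist4h4 lie near 0.

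The H4 genes included the largest falls. Hist1h4k scored 213.5, 220.0 and 216.2 in Int and 61.3, 52.4 and 52.8 in Late nuclei of WT, and 209.5, 218.8 and 214.7 against 62.0, 51.7 and 55.5 in KO. No Late library came near an Int library in either genotype. It fell by 1.95 ± 0.05 (SE) in WT and by 1.91 ± 0.05 in KO, with limma's adjusted p of 2.43e-18 and 3.30e-18. Hist1h4j, in the same group, fell from 187.1, 211.2 and 199.6 to 75.6, 71.8 and 58.9 in WT and from 172.9, 184.8 and 182.7 to 49.8, 49.7 and 56.7 in KO, again with no overlap. Hist1h4d fell by 1.1 ± 0.047 and 1.03 ± 0.047. At the other end, Hist1h4c fell by 0.15 ± 0.035 in both genotypes, from 261.2 to 286.0 in Int to 245.5 to 252.1 in Late nuclei of WT; its difference turned to 0.06 and 0.04 with median centring. Of all genes tested, 48.6% fell in WT and 47.5% in KO, and of the 10 H4 genes 9 fell in each genotype. The H4 median was -0.91 in WT and -0.78 in KO. Hist4h4, on chromosome 6, was the exception.

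Among the H2A and H2B genes, Hist1h2bn had the fall nearest to that of Hist1h4k, by 1.81 ± 0.05 in WT and 1.84 ± 0.05 in KO. Its Int scores were 232.4, 239.8 and 230.2 in WT and its Late scores 74.2, 62.5 and 62.3. Hist1h4j, Hist1h4k and Hist1h2bn lie between 21735034 and 21754553 in the first group on chromosome 13, with Hist1h2ak, which fell less, before Hist1h2bn. Of these, Hist1h2bn is nearest to the run listed at 0. Hist1h2ap, at the other end of the run, did not pass in WT (-0.19 ± 0.12, adjusted p = 0.147, limma) or KO (-0.25 ± 0.12, adjusted p = 0.0625, limma). Hist1h2bl, at the far end of the group, fell by 0.50 ± 0.045 and 0.40 ± 0.045. Hist1h2al is counted among the genes that fell, but its Late scores (1.47 to 2.15 in WT, 3.39 to 4.7 in KO) lay under the filter of 5. It was tested only through its Int scores of 7.12 to 8.21 and 8.59 to 10.6, so its call is no support for a fall. Of 12 H2A genes tested, Hist1h2al included, 11 fell in WT and 10 in KO, with medians of -0.53 and -0.36. Of 13 H2B genes 12 and 11 fell, with medians of -0.50 and -0.40. The shares of all genes that fell were 48.6% in WT and 47.5% in KO.

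The divergent pair Hist1h2ac and Hist1h2bc had smaller differences than the medians of their types. Hist1h2ac scored 322.3, 351.7 and 372.5 in Int and 292.4, 285.2 and 299.2 in Late nuclei of WT, with no overlap. In KO it scored 315.7, 342.0 and 345.1 in Int and 327.4, 323.2 and 324.7 in Late, and the classes overlapped. The differences were -0.25 ± 0.038 (adjusted p = 3.59e-06, limma) in WT and -0.04 ± 0.038 (adjusted p = 0.364, limma) in KO. Hist1h2bc had nearly the same differences, -0.24 and -0.04. Both WT calls were lost with median centring, where Hist1h2ac was at -0.045 (adjusted p = 0.55, limma) and Hist1h2bc at -0.035 (adjusted p = 0.609, limma).

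Of the 7 H3 genes, 6 fell in each genotype, where 48.6% of all genes fell in WT and 47.5% in KO. The H3 medians were -0.75 and -0.56. Hist1h3g scored 720.2, 717.8 and 776.5 in Int and 437.4, 420.0 and 412.8 in Late nuclei of WT, and fell by 0.80 ± 0.042 in WT and 0.83 ± 0.042 in KO. Hist1h3e did not pass the test in either, at -0.05 ± 0.04 and -0.01 ± 0.04, and scored 212.1 to 226.2 in Late nuclei of WT against 217.2 to 239.2 in Int. Its direction depended on the setting: it was higher with median centring, at 0.16 in WT and 0.18 in KO, and lower in the depth-matched classes, at -0.22 and -0.17, passing the test each time.

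Of the linker histone genes tested, 4 of 4 fell in WT and 3 of 4 in KO, where 48.6% and 47.5% of all genes fell. Hist1h1a fell from 608.8, 672.4 and 631.7 to 331.2, 311.6 and 330.1 in WT (a fall of 0.97 ± 0.04), and by 0.89 ± 0.04 in KO. Hist1h1d fell by 0.96 ± 0.039 and 0.84 ± 0.039, and Hist1h1t, a linker histone of the male germ line, by 0.38 ± 0.067 and 0.47 ± 0.067. Hist1h1c scored 392.7, 405.4 and 445.1 in Int and 346.9, 384.9 and 409.2 in Late nuclei of WT, a fall of 0.12 ± 0.038 (adjusted p = 0.00538, limma) although the ranges of the classes overlapped across libraries. In KO its difference was 0.04 ± 0.038 (adjusted p = 0.332, limma). The WT call was lost without the first WT library and without a variance trend. With median centring the WT difference was 0.08 (adjusted p = 0.287, limma), so its direction depended on the scaling.

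Outside chromosome 13, Hist3h2ba fell by 0.82 ± 0.038 in WT and 0.85 ± 0.038 in KO, from 173.9, 148.0 and 164.4 to 107.0, 80.8 and 88.2 in WT. Hist3h2a fell less, by 0.19 ± 0.035 and 0.23 ± 0.035, and was at 0.01 in WT with median centring. The H2B pseudogene Hist3h2bb-ps, which faces away from it, was at 0.03 ± 0.034 and -0.03 ± 0.034. This pseudogene passed the test as lower in the depth-matched classes of both genotypes. Over the alternatives its difference ranged from -0.16 to 0.23 in WT and from -0.18 to 0.16 in KO. Hist4h4 scored 514.0, 494.3 and 462.6 in Int and 520.3, 508.5 and 470.6 in Late nuclei of WT, a difference of 0.03 ± 0.038 (adjusted p = 0.514, limma), and -0.05 ± 0.038 in KO (adjusted p = 0.269, limma). It passed the test as lower in KO in the depth-matched classes (-0.23; -0.083 in WT, not passing) and as higher in WT with median centring (0.23). H2afj, which encodes a replication-independent H2A, starts 3817 bases from Hist4h4 and was at -0.02 in WT and -0.09 in KO.

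**Figure D2:**
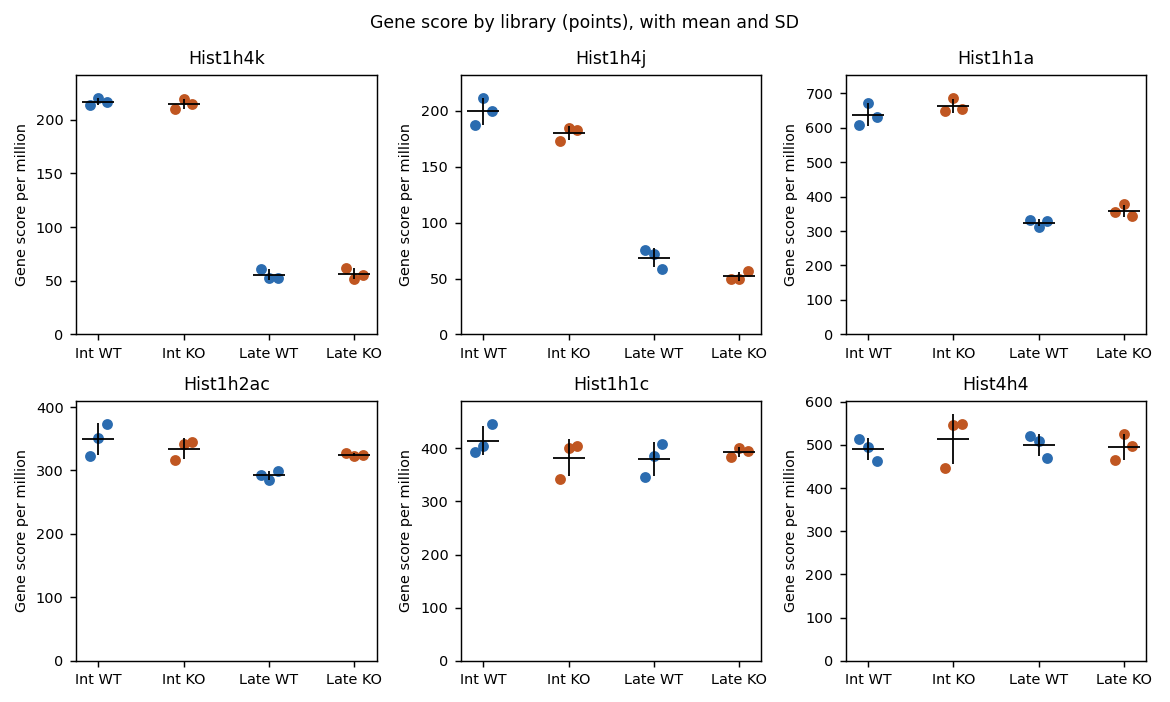
Gene score per 1000000 in each library (points) with mean and SD, by class and genotype, for 6 histone genes; every axis starts at 0. Hist1h4k, Hist1h4j and Hist1h1a separate Int from Late nuclei in both genotypes, while Hist4h4 and Hist1h1c overlap between the classes.

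Of 45 other genes within 100 kb of a histone gene, 35 were tested; 11 rose and 11 fell in WT, with a median of -0.04, where 27.4% of all genes rose and 48.6% fell. In KO 8 rose and 14 fell, with a median of -0.07, where 25.9% of all genes rose and 47.5% fell. The median over all genes was -0.15 in both. Within the third group, Hfe, the iron-regulatory gene next to Hist1h4c, was at -0.03 in WT. Mean Late scores lay under the filter of 5 for 3 of the 11 that fell in WT, Slc17a4 (3.42), Spin1 (4.06) and Nxnl2 (1.82), and for 1 of the 14 in KO, Nxnl2 (3.8), so these calls are no support for a fall.

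Genotype was first compared over all nuclei. The histone genes as a whole differed little between KO and WT. Of 46 tested, 3 were higher and 2 lower in KO, where 43.3% of all genes were called, 29.1% higher and 14.2% lower. The median difference was 0.02, against 0.10 over all genes. The summed Hist1 score was 13207, 13850 and 15229 in WT and 13717, 14558 and 14559 in KO, which overlap. With median centring, which brought the median of all genes to -0.05, 1 was higher and 3 lower, where 17.1% and 31.2% of all genes were. With quantile normalization 13 were higher and 1 lower, where 14.4% and 16.3% of all genes were. Only Hist3h2ba of the 5 genes passed the test under quantile normalization too.

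Hist1h2be, an H2B gene, was lower in KO, at 128.1, 117.3 and 123.4 in WT and 106.5, 112.1 and 109.5 in KO, with no overlap (-0.17 ± 0.044, adjusted p = 0.00647, limma). Hist1h4j was lower by the same amount (-0.17 ± 0.061, adjusted p = 0.0329, limma), with overlapping libraries. Hist1h2al, counted among the 3 that were higher, was at 3.5, 5.02 and 4.75 in WT and 7.07, 5.89 and 6.90 in KO. Its WT mean of 4.43 lay under the filter of 5, so it was tested only through the higher KO scores, and the call is no support for a difference. Its neighbours Spin1 and 9430083A17Rik were higher by 1.0 and 1.24, the latter the highest among the 35 tested neighbours of all histone genes. Of those 35, 10 were higher and 4 lower, where 29.1% and 14.2% of all genes were. Hist1h2ap, beside the run listed at 0, was higher at 0.30 ± 0.11 (adjusted p = 0.0414, limma), and Hist3h2ba at 0.15 ± 0.055 (adjusted p = 0.0344, limma). The Hist1h4j call was lost under 6 of 15 alternatives, among them without the second or the third WT or the second KO library (adjusted p up to 0.281). The Hist1h2ap call was lost under 10 of 14 alternatives, among them median centring, quantile normalization, matched nuclei and without any 1 library other than the second WT library (adjusted p up to 0.848). That of Hist3h2ba was lost under 8 of 15, among them both other filters, median centring, matched nuclei and without the second WT or the second KO library (adjusted p up to 0.966). Without the second WT library 3 genes were called, where 47.6% of all genes were, and without the second KO library 2, where 33.0% were.

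The mixture of classes differed between libraries, with 2236 to 3999 Int and 2971 to 4527 Late nuclei in WT and 2043 to 2401 and 2176 to 2549 in KO, so each class was compared on its own. Among Int nuclei 1 of 46 histone genes was lower in KO and 0 were higher, where 19.8% of all genes were called, 12.7% higher and 7.1% lower. That gene was Hist1h2be, at 134.9, 131.6 and 131.8 in WT and 113.0, 125.2 and 121.8 in KO (-0.15 ± 0.049, adjusted p = 0.0334, limma). It did not pass under 7 of 15 alternatives, among them without the first WT, the first KO or the third KO library (adjusted p up to 0.254). The median was -0.03, against 0.06 over all genes. With quantile normalization 3 genes were higher and 0 lower, where 10.7% and 10.4% of all genes were.

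Among Late nuclei 17 of 45 histone genes were higher and 3 lower in KO, where 51.4% of all genes were called, 32.9% higher and 18.5% lower. The 20 genes fell into 9 of 20 loci, 6 higher and 3 lower. The median difference was 0.07, against 0.05 over all genes, and the share called, 44.4%, was near that of all genes. Among genes with a mean score of at least 100, 9.69% were higher and 32.5% lower. All histone genes called higher except Hist1h2ap were in that range, as were those called lower except Hist1h4j. Of the 45 histone genes tested, whatever their score, 37.8% were higher and 6.67% lower. The differences were small: the highest called was Hist1h2ap at 0.26 (adjusted p = 0.0455, limma), which turned to -0.17 in nuclei matched in depth and to -0.07 with quantile normalization, followed by Hist1h2bg at 0.23 ± 0.055 (adjusted p = 0.0034, limma) and by Hist1h2ae and Hist1h2ad at 0.16 ± 0.042 each. The Hist1h2ap call was also lost without any 1 library other than the third WT library. All 3 other calls were lost in random nuclei, and those of Hist1h2ae and Hist1h2ad with median centring as well (adjusted p up to 0.235, limma).

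Hist1h2bg, an H2B gene paired with Hist1h2ae, scored 185.9, 165.0 and 192.1 in Late WT nuclei and 201.2, 222.4 and 213.3 in Late KO nuclei, with no overlap. Hist1h2ae scored 467.0, 430.1 and 464.8 against 490.0, 528.7 and 506.0. Hist1h4j was lower in KO, at 75.6, 71.8 and 58.9 in WT and 49.8, 49.7 and 56.7 in KO (-0.39 ± 0.082, adjusted p = 0.00146, limma). It passed the test under every alternative run for it in Late nuclei, with differences of -0.50 to -0.32. Hist1h4k, whose promoter shares the run of 72 bases, did not differ by this test, at 0.02 ± 0.074 (adjusted p = 0.803, limma). Hist1h2be was lower at -0.18 ± 0.055 (adjusted p = 0.0132, limma), lost in 4 of 15 alternatives including that without the first WT library, and Hist1h3g at -0.09 ± 0.037 (adjusted p = 0.0492, limma). The Hist1h3g call was lost under 11 of 15 alternatives, among them matched nuclei and without the first or second WT or the first or second KO library (adjusted p up to 0.728).

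How many passed depended on the setting. With median centring 1 was higher and 4 lower, where 25.9% and 28.2% of all genes were. With quantile normalization 21 were higher and 2 lower, where 17.6% and 20.2% of all genes were, and 16 of these 23 were among the 20. With a random draw of 780 Late nuclei from each library 3 were higher and 2 lower, where 19.2% and 10.3% of all genes were. Between the same number of nuclei matched in depth and share of ends in peaks 14 were higher and 1 lower, where 7.67% of all genes were higher and 7.69% lower. Without the second WT library 5 were higher and 3 lower, where 29.0% and 14.0% of all genes were. Without the second KO library 6 were higher and 2 lower, where 27.9% and 14.3% of all genes were.

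**Figure D3:**
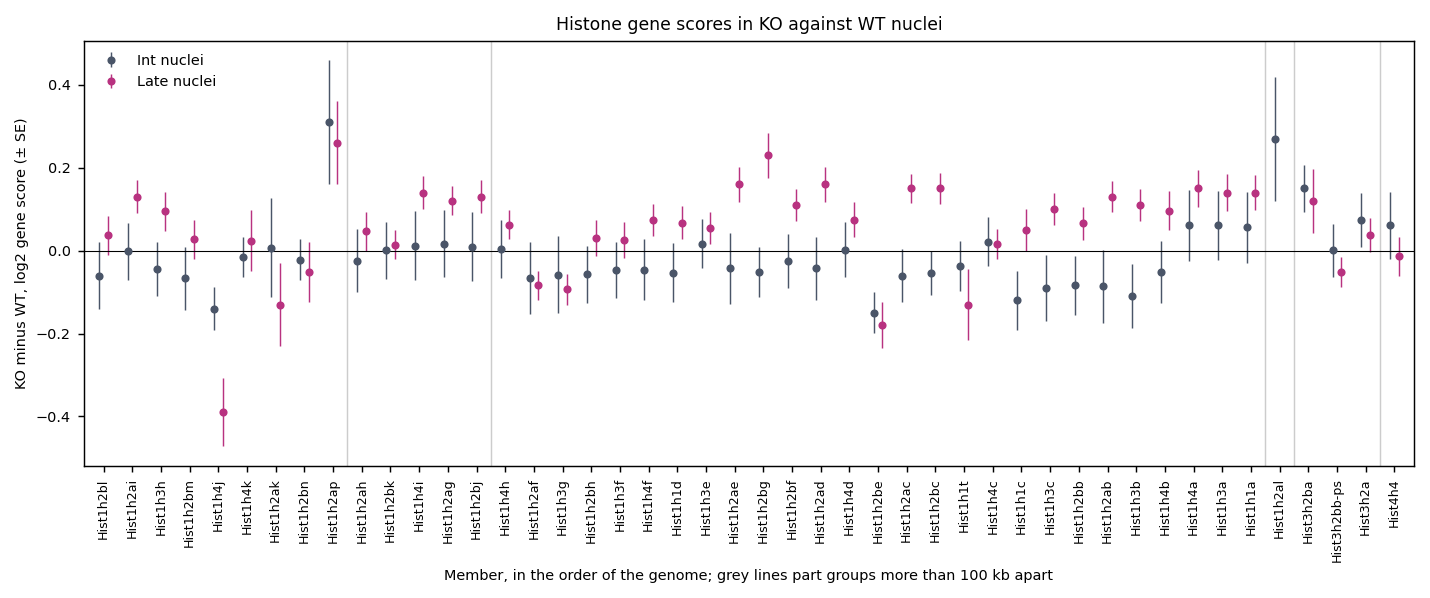
KO minus WT difference in log2 gene score for each tested histone gene (points, with SE), Int and Late nuclei separately, in genome order. Hist1h4j and Hist1h2be lie below 0 in both classes, and most Hist1 genes lie slightly above 0 in Late nuclei and near or below 0 in Int nuclei.

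Whether the KO difference changed between the classes was tested on the within-library differences. It was greater in Late than in Int for 7 of 46 genes and smaller for 0, where 7.49% of all genes were called, 5.35% greater and 2.14% smaller. The 7 lay in the third group on chromosome 13, in 3 loci: Hist1h2ae, Hist1h2bg and Hist1h2ad; Hist1h2ac and Hist1h2bc; and Hist1h2ab and Hist1h3b. The median over the histone genes was 0.09, against 0.02 over all genes. Among the 7, Hist1h2bg differed most, by 0.28 ± 0.056 (adjusted p = 0.00365, limma). Hist1h2al had a larger difference, 0.58 ± 0.19, that did not pass (adjusted p = 0.0642, limma), and its Late scores lay under the filter of 5. No histone gene was called with median centring or without a variance trend, where 7.93% and 2.42% of all genes were. Without the second WT, the first KO or the second KO library 1 was called, where 5.4%, 4.1% and 2.13% of all genes were. In the depth-matched classes 3 were called, of which Hist1h2ab and Hist1h3b were among the 7, where 0.208% of all genes were called.

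Of the authors' clusters, C5 and C2 held at least 50 nuclei in every library, so KO was compared with WT within these. In C5, where 2305 nuclei were classed as Int and 21 as Late, most Hist1 genes had lower scores in KO than in WT, although 1 passed the test. Of 47 genes tested, 1 was lower, Hist1h2be, and 0 were higher, where 0.89% of all genes were called, 0.412% higher and 0.478% lower. Every KO library was below every WT library for 28 of the 47, where this held for 7.89% of all genes, and the reverse held for 0, where it held for 11.7%. Unadjusted p-values were under 0.05 for 30 of 47 against 13.4% of all genes. The median difference was -0.26, against 0.07 over all genes, and -0.10 against 0.01 with quantile normalization. All 28 were Hist1 genes, and neighbours among them share fragments, so they are not 28 separate results. The 47 genes tested lay in 22 loci. Over all nuclei 42 histone genes had a mean score of at least 100, and shares among genes of that range are not given for C5. In Late nuclei 32.5% of such genes were lower and 9.69% higher in KO, where 18.5% and 32.9% of all genes were. The part of score level in the C5 result was not tested.

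In C5 the summed Hist1 score was 21360, 22820 and 24201 in WT and 17677, 19461 and 20262 in KO, with no overlap. Hist1h4k scored 289.4, 285.0 and 305.7 in WT and 220.7, 237.2 and 229.7 in KO (-0.35 ± 0.086, adjusted p = 0.0858, limma). Hist1h2be scored 182.4, 183.0 and 160.0 in WT and 106.9, 124.4 and 129.0 in KO (-0.54 ± 0.11, adjusted p = 0.0481, limma). Hist4h4 was at 595.4, 631.5 and 478.4 in WT and 524.7, 576.2 and 594.4 in KO, with wide overlap, and the 3 Hist3 genes were at -0.03 to 0.07. The count of calls ranged from 0 to 8 as libraries were left out, with 8 without the first WT library, all lower, where 0.728% of all genes were lower. Hist1h2be was not among these 8, and its call was lost under 8 of 13 alternatives (adjusted p up to 0.29, limma). Its difference was -0.61 to -0.46 over the 13. The count was 0 without the second WT or any 1 KO library, where 0.0415% to 0.616% of all genes were called.

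C5 held 143 to 261 WT nuclei with a median of 3909 to 4163 fragments, and 528 to 598 KO nuclei with 4745 to 5034. The part of this depth gap in the result was not tested. The WT libraries held 2236 to 3999 Int nuclei in all and the KO libraries 2043 to 2401, so C5 took up a smaller share in WT. The clusters are the authors' grouping of these same nuclei, and the part of that grouping in the result was not tested either. 

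**Figure D4:**
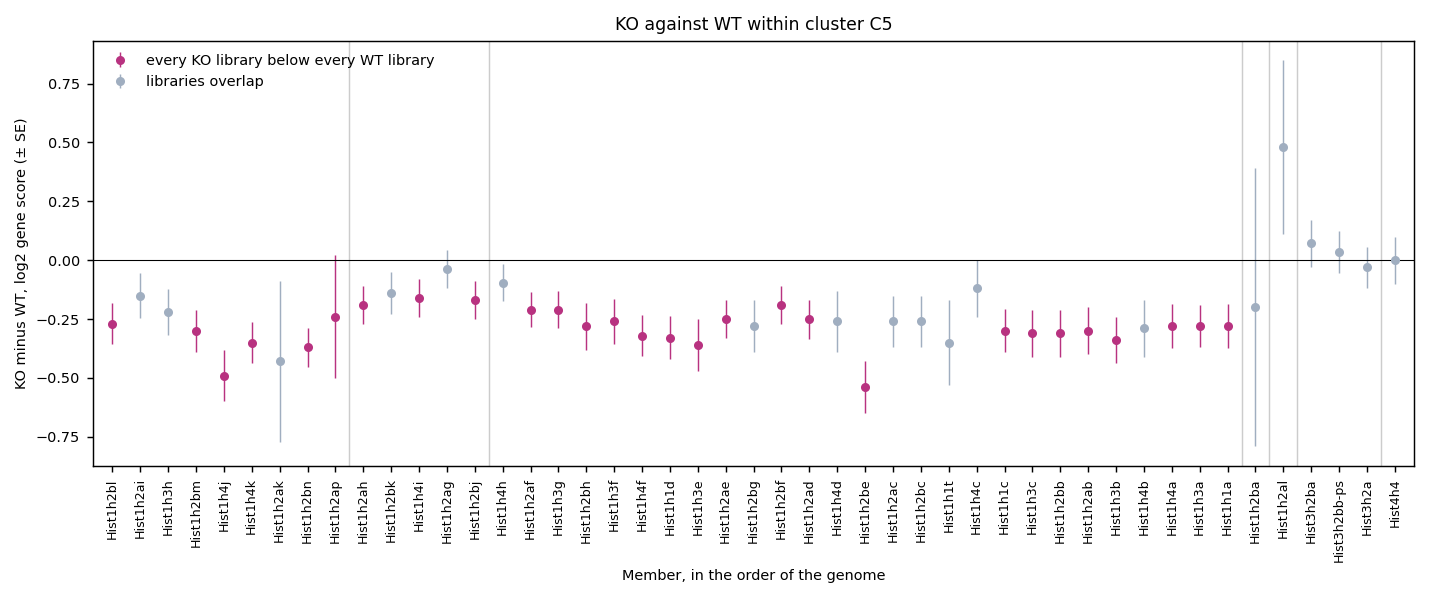
KO minus WT difference in log2 gene score within cluster C5 for the 47 tested histone genes (points, with SE), in magenta where every KO library was below every WT library and otherwise in grey. The 28 magenta points are all Hist1 genes; the Hist3 genes and Hist4h4 lie near 0.

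In C2, where 7223 nuclei were classed as Late and 37 as Int, 0 of 45 histone genes passed limma's test, where 0% of 17360 genes did, and 3 of 45 had an unadjusted p under 0.05 against 12.6% of all genes. The cluster held 58 to 68 WT and 2134 to 2490 KO nuclei. The WT nuclei had a median of 1920 to 2259 fragments and the KO nuclei of 6092 to 6594. The part of this gap was not tested. The SE of single histone genes reached 1.2 log2 units there, for Hist1h2ak. Hist1h4k scored 137.6, 36.4 and 40.1 in the WT libraries, which stand further apart than the 61.3, 51.7 and 57.0 of KO. Without the second WT library 5 histone genes were lower, where 1.51% of all genes were, and without the first 1 was higher, where 1.8% were.

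Across the 9 clusters with at least 50 nuclei in some library, given as levels with no test, summed Hist1 scores were highest in C5 and low in C2, C3 and C7; C1 and C4 had too few nuclei. Among the other Int clusters, C6, C9 and C11, made up mostly of WT nuclei, ranged from 15933 to 18310 by library, and C8 and C10, mostly of KO nuclei, from 14579 to 17887. The Late cluster C3, of WT nuclei, ranged from 10819 to 11458, and the KO libraries of C2 from 11663 to 11974. The 3 WT libraries of C2, at few nuclei, were at 8977.6 to 14399. C7, which held 689 nuclei of the Early class and 43 of Int and reached 50 nuclei in 3 libraries, was at 12146 and 12322 in WT and 10812 in KO. Depth differed between clusters: the median was 40490 to 43439 fragments in these 3 libraries of C7 and 3909 to 5034 in C5. The part of depth in these levels was not tested. Hist4h4 also had its highest mean in C5, with libraries at 478.4 to 631.5 that overlapped those of other clusters, and its lowest scores in C7, at 262.0 to 335.8. Unlike the Hist1 sum it was not low in C3, at 472.2 to 520.6, against 404.2 to 472.9 in the Int cluster C9.

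**Figure D5:**
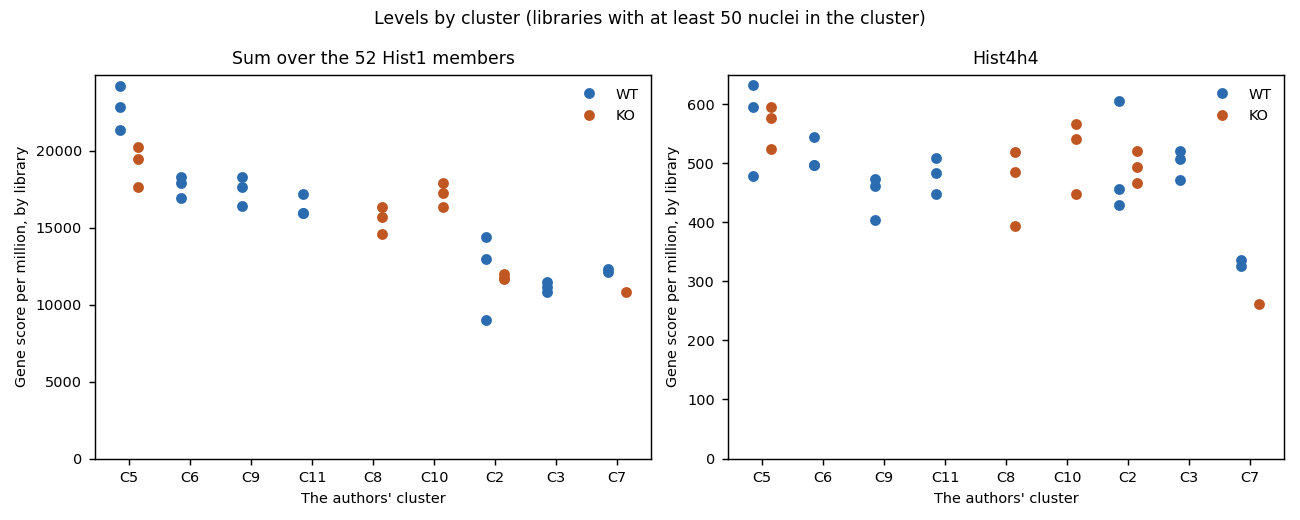
Summed Hist1 score and Hist4h4 score per 1000000 in each library (points) by the authors' cluster, for libraries with at least 50 nuclei in it; both axes start at 0. The Hist1 sum is highest in C5, where the KO libraries lie below the WT libraries, and low in C2, C3 and C7, while Hist4h4, also highest by mean in C5 and lowest in C7, is not low in C3.

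Genes that encode other histones or act on histone genes were counted from lists. Of 14 replication-independent histone variants 13 were in the table and 9 were tested over all nuclei. In KO 3 were higher and 1 lower, where 29.1% and 14.2% of all genes were: H1f0, the linker histone of differentiated cells, by 0.84, H1fx by 0.65, H2afy (macroH2A) by 0.61, and H3f3a, which encodes H3.3, by -0.20. H2afx was listed at 0. Between Late and Int nuclei 1 rose and 5 fell in WT, where 27.4% of all genes rose and 48.6% fell, with H2afy at -1.44. In KO 1 rose and 7 fell, where 25.9% rose and 47.5% fell.

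Of 21 gene symbols listed for histone gene transcription and 3′ end processing, 20 were in the table. In KO 0 of these were higher and 6 lower over all nuclei, where 29.1% and 14.2% of all genes were. The nuclease gene Eri1 was lower by 0.36, Cpsf2 by 0.20, and Lsm10 and Ccne2 by 0.19 each on the log2 scale. Between Late and Int nuclei of WT 9 rose and 5 fell, and of KO 8 rose and 7 fell, against 27.4% and 48.6% of all genes in WT and 25.9% and 47.5% in KO. In WT Npat rose by 0.28, and Slbp fell by 0.51. All 21 genes for histone chaperones and chromatin assembly were tested, and in KO 0 were higher and 7 lower, against the same 29.1% and 14.2% of all genes, with Nap1l4 at -0.36 and Supt16, a FACT subunit, at -0.27. Between Late and Int nuclei of WT 6 of these rose and 9 fell, and of KO 7 rose and 11 fell, against the shares of all genes just given. In WT the differences included Chaf1b, a subunit of the replication-coupled assembly factor CAF-1, at -0.91 and Nap1l1 at -1.29. Among all genes with a mean score of at least 100, 63.7% rose and 19.1% fell in WT, and 62.6% and 19.8% in KO. For KO against WT such shares are given for Late nuclei only, 9.69% higher and 32.5% lower. How many genes of these lists scored at least 100 was not counted.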

How the data were processed

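Gene scores of 34073 nuclei in 6 ATAC libraries were read from the deposited table, a signal the authors had scaled to a sum of about 10000 per nucleus. Fragment counts per nucleus, clusters and classes are as deposited. Cell Ranger and mm10 are named in the submitters' processing notes. The gene score software and the source of the classes are not given in the sources used here. Scores and genes were joined by row order, as the table carries no gene names. Each nucleus was listed 2 times with equal values, and 1 copy was used. No doublet caller was run here. The deposited table holds a doublet score, with a median of 0 in every library, which was not used as a filter. Whether the authors had removed doublets is not given in the sources used here.

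Scores were averaged per library and class, scaled to 1000000, and compared as log2(score + 1) with limma 3.58.1 in R 4.3.3 (eBayes with trend, two-sided, Benjamini-Hochberg over all genes tested, threshold 0.05, genes with a mean of at least 5). Fold differences on this scale understate those of low genes. Late and Int were compared within libraries. The fits of KO against WT were tested on simulated data with 200 changed genes. The fits on within-library differences between Late and Int were not simulated. A log2 change of 0.5 was found for 97% of changed genes over all nuclei, 83% in Int and 96% in Late. In C5 it was found for 26% and in C2 for 3%. A change of 1.0 was found for 61% in C5, 24% in C2 and 100% over all nuclei, in Int and in Late. Few calls in C5 and C2 therefore do not show that differences are absent. Python 3.11.15 was used for the rest.

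The genes and lists were chosen with earlier results of these data known. Genes were named by rule: all of Hist2, Hist3 and Hist4, the linker genes, Hist1h2aa and Hist1h2ba, per fit the 4 highest and 4 lowest called without overlap, and the highest score per histone type. Hist1h4k, Hist1h2bn, Hist1h4d, Hist1h2ac, Hist1h2bc, Hist1h3e, Hist1h2ab, Hist1h3b, Hist1h4c and Hist1h2ak were named after their values were seen, as were the neighbours and the later list examples. Alternatives were another pseudocount, filters at 0 and 20, median centring, quantile normalization, no variance trend, each library left out, a replicate block, matched and random nuclei, and, chosen after seeing the data, depth-matched classes.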

Additional observations from a re-analysis of the deposited data

Results flagged for a closer look

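The difference between KO and WT was itself different between Late and Int nuclei for 7 histone genes by limma's test of that difference, where 7.49% of all genes were called and 5.35% were greater. The 7 lie in 3 loci, whose genes share fragments. KO minus WT in Late less KO minus WT in Int was 0.28 on the log2 scale for Hist1h2bg, 0.22 for Hist1h3b, and 0.20 for Hist1h2bc. It was 0.21 for each of Hist1h2ae, Hist1h2ad, Hist1h2ac and Hist1h2ab. None of the 7 passed with median centring or without a variance trend, although the differences stayed about as large: Hist1h2bg was at 0.27 and Hist1h3b at 0.21 with median centring. Of the 7, Hist1h2ab and Hist1h3b passed in the depth-matched classes. Without the second WT, the first KO or the second KO library 1 histone gene was called.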

How the results depend on the processing

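The number of genes that fell from Int to Late was 33 to 43 in WT and 29 to 44 in KO over the alternatives run, where 22.7% to 59.5% and 21.3% to 56.3% of all genes fell. It was 41 to 43 and 39 to 40 as libraries were left out, where 43.3% to 51.2% and 40.8% to 50.4% fell. Single differences changed sign, some of them without passing the test. With quantile normalization they included Hist1h2ap in WT (0.34) and KO (0.11). With median centring they included Hist4h4 in KO (0.14); Hist1h1c (0.082), Hist3h2a (0.013), Hist1h3e (0.16) and Hist1h4c (0.061) in WT, and Hist3h2bb-ps (0.16), Hist1h2ac (0.15), Hist1h2bc (0.15), Hist1h3e (0.18) and Hist1h4c (0.04) in KO. In the depth-matched classes they included Hist4h4 (-0.083) and Hist3h2bb-ps (-0.16) in WT and Hist1h1c (-0.14) in KO. Hist1h2ap in KO against WT Late nuclei turned with quantile normalization (-0.07) and in matched nuclei (-0.17). The cause was not tested.

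Counts of histone genes called in KO against WT moved as follows, with the share of all genes called in the same fit in brackets. Over all nuclei the 5 (43.3%) became 1 with a filter at 20 (41.0%), 14 with quantile normalization (30.8%), 3 without a variance trend (37.7%), 2 in matched (24.0%) and 3 in random nuclei (29.5%), and 2 to 4 as libraries were left out (30.7% to 47.6%). In Int nuclei the 1 (19.8%) became 2 with a pseudocount of 5 (20.3%), 0 without a filter (14.9%), 2 with median centring (28.5%), 3 with quantile normalization (21.1%), 0 without a variance trend (9.87%) and 2 in matched nuclei (18.4%), and 1 to 2 as libraries were left out (13.2% to 24.5%). In Late nuclei the 20 (51.4%) became 5 with median centring (54.1%), 7 without a variance trend (46.2%) and 5 in random nuclei (29.6%), and 8 to 21 as libraries were left out (42.2% to 49.1%). They became 23 with quantile normalization and 15 in matched nuclei, with the shares of all genes given by direction above. In C5 the 1 (0.89%) became 0 without a filter (0.479%), 3 with a filter at 20 (2.28%), 0 with median centring (0.715%) and 0 without a variance trend (0.00514%), and 0 to 8 as libraries were left out (0.0415% to 1.71%). In C2 the 0 became 0 to 5 (0% to 6.65%). The 7 genes whose KO difference changed between the classes (7.49%) became 0 with median centring (7.93%), 0 without a variance trend (2.42%) and 3 in the depth-matched classes (0.208%), and 1 to 9 as libraries were left out (2.13% to 15%).

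The labels do not say whether libraries with the same replicate number belong together. The correlation of same-numbered deviations was -0.117, -0.273 and 0.206 over all nuclei, 0.129, -0.084 and 0.192 in Int, and 0.087, 0.045 and 0.051 in Late. Between different numbers it ranged from -0.325 to 0.422, from -0.257 to 0.183 and from -0.071 to 0.02. Deviations of 3 libraries from their own mean are not independent, so these values cannot decide the question. With the replicate block the counts were 4 over all nuclei (42.2%), 3 in Int (23.3%), 16 in Late (50.2%), 2 in C5 (1.05%) and 0 in C2 (0%). The Late against Int fits are paired within libraries. C2 held 58 to 68 nuclei in the WT libraries and 2134 to 2490 in the KO libraries.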
